A study of Homo sapiens with 4 samples.

Results

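GPNMB and 43 other genes of the lysosome were examined in HaCaT keratinocytes that overexpress TCN1. The 44 genes were chosen by name for their roles: digestive enzymes and their cofactors, membrane proteins, subunits of the proton pump, the transcription factors that control them, the autophagy receptor SQSTM1, and the membrane glycoprotein GPNMB. Of the 44, 43 were found among the 29209 genes listed in each library, and TFE3 is not analysed here. HaCaT is a spontaneously immortalised human keratinocyte line, and per the labels' protocols lentivirus was used to establish the line with extra TCN1, the gene of a secreted protein that binds vitamin B12. The groups were the TCN1 overexpression line (TCN1_OE, 2 libraries) and the negative control line (NC, 2 libraries), both grown in DMEM with serum and sequenced as polyA RNA. Cells were collected after 48 h, counted from a step that the labels do not name. The sources used here do not give which vector the NC line carried or whether either line is 1 clone. The labels do not say whether the 2 libraries of each line are separate cultures. The p-values therefore measure the spread among these 4 libraries and no more, and that spread may be technical.

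Lysosomes are acidic compartments in which proteases, glycosidases, sulfatases and lipid-cleaving enzymes break down material brought in by endocytosis and autophagy. A V-type ATPase pumps protons into them, heavily glycosylated membrane proteins line them, and TFEB, TFE3 and MITF, the MiT/TFE family, drive transcription of many of their genes through the CLEAR element. In epidermis, lysosomal enzymes act in lipid processing for the skin barrier and in the breakdown of organelles as keratinocytes mature. GPNMB is a transmembrane glycoprotein of lysosomes and melanosomes, and its gene is a known target of MITF and of its relatives.

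The libraries held 16586500 and 14756073 counts in TCN1_OE, against 19973550 and 11593377 counts in NC. TCN1 had 1700 and 1253 counts in TCN1_OE, against 50 and 17 counts in NC, which fits the labels. Mitochondrially encoded genes took 6.04 and 5.65% of the counts in TCN1_OE and 5.33 and 5.13% in NC, and the part of this difference in the results below was not tested. The keratinocyte markers KRT5, KRT14, TP63, SFN, DSP, PKP1 and KRT15 were all detected, and their summed level was 7511 and 8399 FPKM in TCN1_OE and 6994 and 7680 FPKM in NC. FPKM scales the fragments of a gene by its length and by the size of the library. The length implied by the deposited values was close to the annotated exonic length in some genes, as in LAMP1 (5741 against 5739 bp). In others it was far from it, as in CTSZ (19384 against 2038 bp). FPKM is therefore used here to compare libraries for the same gene, and compares different genes only roughly. Of 6 melanocyte markers 4 were listed. PMEL had 65 and 62 counts in TCN1_OE and 59 and 37 counts in NC, with both TCN1_OE libraries higher in FPKM, MLANA had 12 to 20 counts, TYRP1 and DCT had at most 2 counts in any library, and the summed level of the 4 was 1.49 and 1.42 FPKM in TCN1_OE and 1.12 and 1.42 FPKM in NC. Of 8 macrophage and dendritic cell markers 7 were listed. CD14 made up most of their level, with 55 and 68 counts in TCN1_OE and 77 and 42 counts in NC. PTPRC had 6 and 2 counts in TCN1_OE and 0 in both NC libraries, and ITGAM had 16 and 19 counts in TCN1_OE and 19 and 10 counts in NC, both higher in TCN1_OE in FPKM without overlap. LYZ and CD163 had 0 counts in both TCN1_OE libraries and at most 3 in NC, CSF1R and FCER1G had at most 5 in any library, and the summed level was 2.45 and 3.16 FPKM in TCN1_OE and 2.77 and 2.60 FPKM in NC. The 4 fibroblast markers listed of 7 summed to 1.83 and 2.05 FPKM in TCN1_OE and 1.89 and 2.15 FPKM in NC, most of it COL1A1.

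GPNMB rose in the TCN1_OE line, and no other gene of the 44 passed the test. GPNMB had 108 and 96.0 FPKM in TCN1_OE, from 10557 and 8365 counts, against 61.4 and 58.8 FPKM in NC, from 7245 and 4023 counts. Both TCN1_OE libraries lay above both NC libraries, and the gap between the groups was wider than the spread within either. The means were 102 ± 8.33 FPKM in TCN1_OE and 60.1 ± 1.88 FPKM in NC (SD, n = 2 each), a 1.69-fold difference. The log2 fold change, here always TCN1_OE over NC with its standard error, was 0.76 ± 0.09 (edgeR quasi-likelihood adjusted p 0.0085). By p-value GPNMB was number 11 of the 15113 genes tested. The call did not hold with limma on log2(FPKM + 0.5), where the log2 fold change was 0.75 and the adjusted p 0.151, a test that called 1 gene in all, TCN1. Since these are bulk libraries, fewer cells that express a gene and less of its RNA per cell cannot be told apart.

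**Figure D1:**
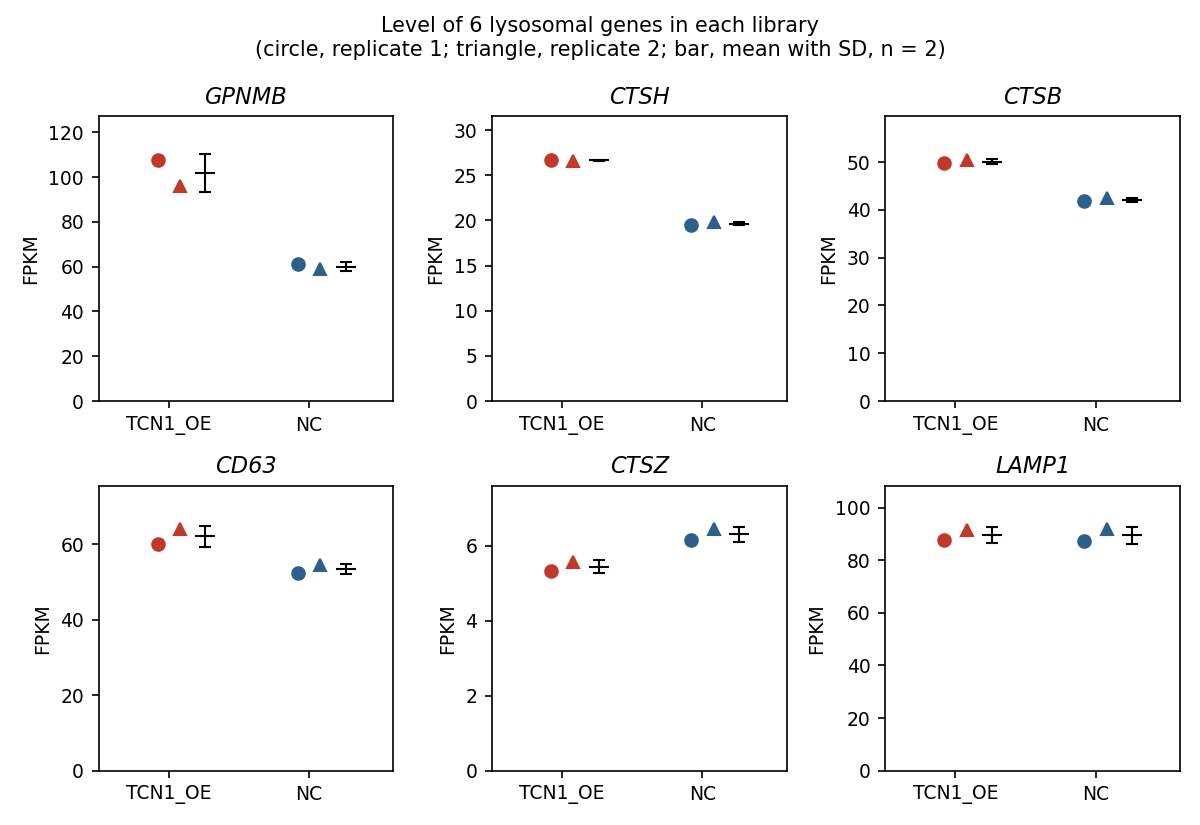
Level of GPNMB, CTSH, CTSB, CD63, CTSZ and LAMP1 in FPKM (vertical axes, each from 0) in the 2 TCN1_OE and the 2 NC libraries, with circles for replicate 1, triangles for replicate 2 and bars for the mean with SD. GPNMB, at 108 and 96.0 FPKM in TCN1_OE and 61.4 and 58.8 FPKM in NC, has the widest gap of the 6, CTSZ is the one that is lower in TCN1_OE, and the groups of LAMP1 overlap.

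The gene (ENSG00000136235) lies on the plus strand of chromosome 7 at 23235967 to 23275108 of GRCh38, and no other annotated gene covers its exons. The 250 bases before its RefSeq start (GRCh38.p14, plus strand, chr7:23246525-23246774) are shown because they hold a form of the M-box, TCATGTGA or on the other strand TCACATGA. The M-box is the E-box variant through which MITF is known to bind pigment cell genes. Below, the name stands for these letters only. The start lies inside the annotated gene, as longer transcripts begin upstream. The match to these letters is in capitals and begins 63 bases before the start. Other variants of the M-box were not searched for, so the bases in lower case may hold one.
GPNMB promoter: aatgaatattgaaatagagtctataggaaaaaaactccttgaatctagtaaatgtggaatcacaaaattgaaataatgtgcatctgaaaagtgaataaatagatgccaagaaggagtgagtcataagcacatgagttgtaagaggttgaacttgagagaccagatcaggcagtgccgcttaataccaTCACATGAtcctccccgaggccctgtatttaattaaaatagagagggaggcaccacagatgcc

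Over the whole set, 42 of the 43 listed genes had enough counts to be tested, and CLN3 did not. Of these 42, 1 was higher and 0 were lower at an edgeR adjusted p under 0.05, where 0.496% of all 15113 genes tested were called in either direction, 0.285% higher and 0.212% lower. At an unadjusted p under 0.05 there were 5, or 11.9%, against 12.8% of all genes: GPNMB, CTSH, CTSB and CD63 on the higher side and CTSZ on the lower. That is 4 genes on the higher side, where 6.0% of all genes stood, and 1 on the lower side, where 6.81% stood. The share for both directions together was close to that of all genes. The log2 fold change was positive in 29 of the 42 and negative in 13, with a median of 0.11, or 0.09 without GPNMB, where all genes tested had a median of 0.0016 and 50.3% positive values. In FPKM both TCN1_OE libraries lay above both NC libraries in 19 of the 42, or 45.2%, against 21.7% of all genes, and below them in 4, or 9.52%, against 21.0% of all genes. Of all 42 log2 fold changes 28, or 66.7%, were within 0.2 of 0, against 56.5% of all genes. The number of positive values ran from 26 without NC replicate 1 to 33 with upper-quartile factors or without NC replicate 2. In 14 of the 43 listed genes over 5% of the exonic bases lay under another annotated gene. Besides those given below with their share, these were CTSA (28.5%), PPT1 (23.4%), IDS (17.4%), HEXA (16.3%), TPP1 (14.4%), NAGLU (12.6%), GLB1 (10.0%), NPC2 (6.37%) and NPC1 (5.98%).

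**Figure D2:**
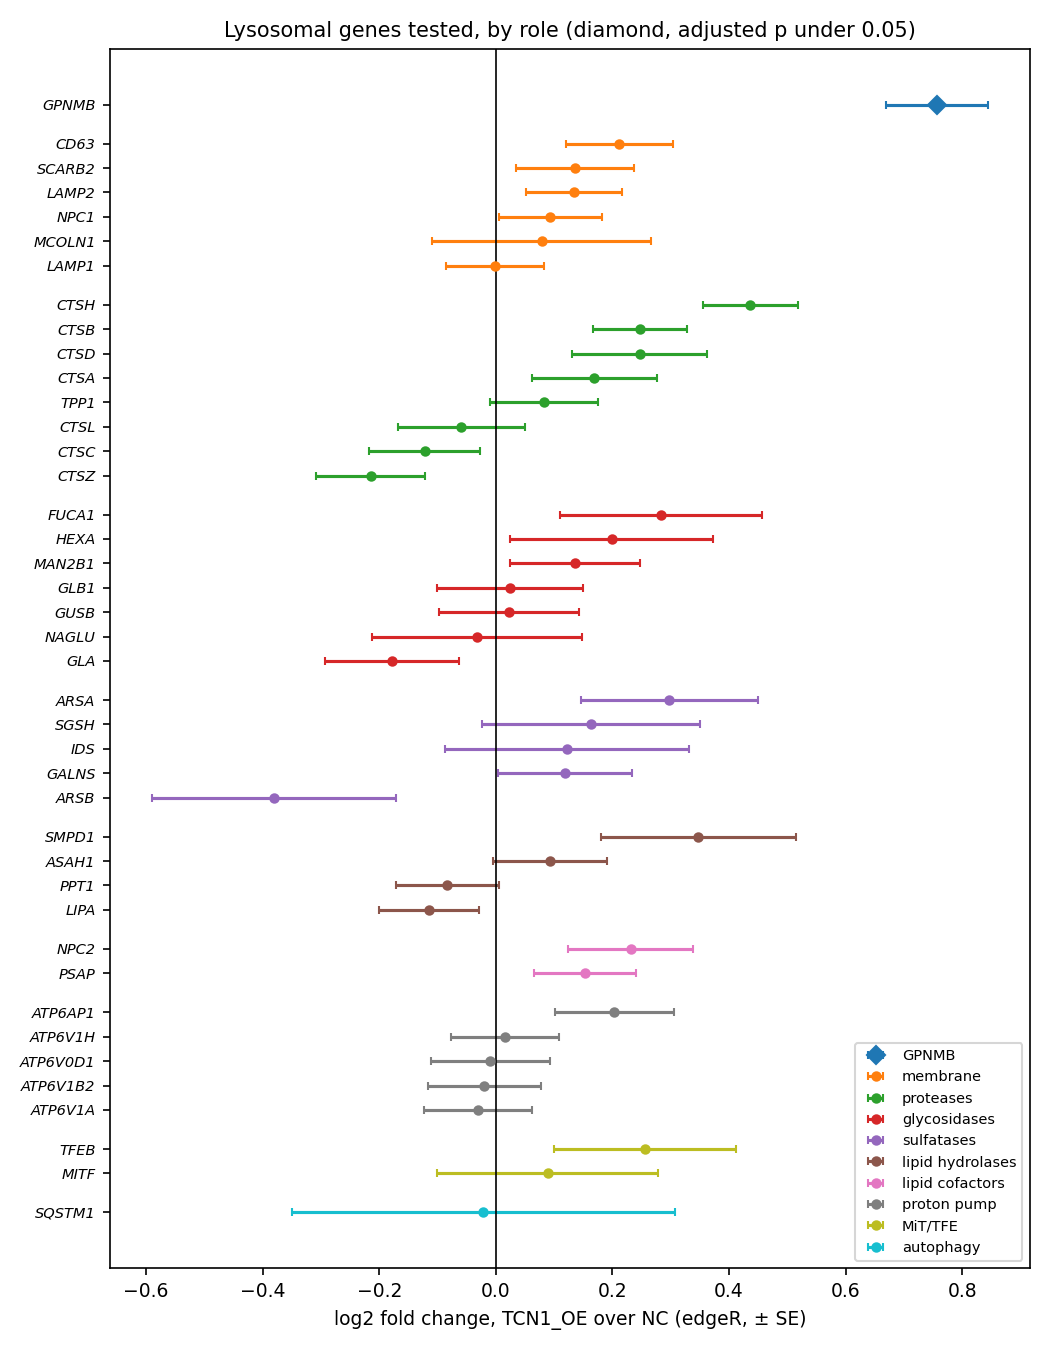
Log2 fold change, TCN1_OE over NC, with its standard error (horizontal axis, edgeR) for 41 lysosomal genes, grouped by role from GPNMB at the top to the autophagy receptor SQSTM1 at the bottom. GPNMB, the diamond at 0.76, is the one with an adjusted p under 0.05. GAA, at 0.97 ± 1.97, is left out because its error would not fit the axis.

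Among the lysosomal membrane proteins, 0 of 6 tested passed edgeR over all genes, 5 had a positive value, and the median log2 fold change was 0.11. CD63, a tetraspanin of late endosomes, lysosomes and secreted vesicles, had 60.2 and 64.0 FPKM in TCN1_OE, against 52.5 and 54.5 FPKM in NC. The log2 fold change of CD63 was 0.21 ± 0.09 (edgeR adjusted p 0.371). Of the exonic bases of CD63 9.0% lie under an antisense gene, which the counts cannot separate if they were made without strand. LAMP2, a main glycoprotein of the lysosomal membrane that also acts in autophagy, had 24.6 and 24.2 FPKM in TCN1_OE and 22.5 and 21.9 FPKM in NC, a log2 fold change of 0.13 ± 0.08. The groups did not overlap in either gene, yet neither passed the test.

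SCARB2, the receptor that carries glucocerebrosidase to lysosomes, had 5.38 and 4.72 FPKM in TCN1_OE and 4.73 and 4.43 FPKM in NC, so its groups overlapped. NPC1, which moves cholesterol out of the lysosome, had 13.8 and 14.0 FPKM in TCN1_OE and 13.0 FPKM in both NC libraries, a log2 fold change of 0.09 ± 0.09. LAMP1, the companion of LAMP2, was named after its values were seen, as the most abundant of the group: it had 87.5 and 91.6 FPKM in TCN1_OE and 87.2 and 91.7 FPKM in NC. Its log2 fold change was -0.0017 ± 0.08, and its sign turned with the scaling. MCOLN1, the calcium channel TRPML1, had 2.39 and 2.62 FPKM in TCN1_OE and 2.24 and 2.51 FPKM in NC. CLN3, a membrane protein mutated in a childhood storage disease, had 6 and 10 counts in TCN1_OE and 12 and 3 counts in NC, and 30.9% of its exonic bases lie under other annotated genes.

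Of the 4 genes besides GPNMB with an unadjusted p under 0.05, 3 were proteases, 2 of them higher and 1 lower, and 0 of 8 proteases passed over all genes. At that unadjusted limit 6.0% of all genes tested stood higher and 6.81% lower, and the proteases were not tested as a set. CTSH, a cysteine cathepsin that acts as an aminopeptidase (chromosome 15, 78921058 to 78949574 of GRCh38, minus strand), had 26.7 and 26.6 FPKM in TCN1_OE, against 19.5 and 19.8 FPKM in NC. The libraries within a group were nearly equal and the groups did not overlap. The log2 fold change of CTSH was 0.44 ± 0.08 (edgeR adjusted p 0.0544), just beyond the threshold of 0.05. Among the alternatives without a replicate block it was called with DESeq2 (adjusted p 0.0057), with upper-quartile factors (0.0412), with no count filter (0.0063) and without TCN1_OE replicate 1 (0.0439), and its adjusted p ran up to 0.201.

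CTSB, a cysteine cathepsin active in protein turnover, had 49.8 and 50.5 FPKM in TCN1_OE, against 41.8 and 42.4 FPKM in NC. The groups did not overlap, and the log2 fold change was 0.25 ± 0.08 (edgeR adjusted p 0.233). CTSD, the main aspartic protease of lysosomes, had 63.5 and 72.1 FPKM in TCN1_OE and 51.3 and 62.7 FPKM in NC, a log2 fold change of 0.25 ± 0.12. Its upper NC library lay just under its lower TCN1_OE library, and 52.7% of its exonic bases are under other annotated genes. CTSZ, a carboxypeptidase, lay lower, with 5.32 and 5.56 FPKM in TCN1_OE, against 6.16 and 6.43 FPKM in NC. For CTSZ the log2 fold change was -0.21 ± 0.09 (edgeR adjusted p 0.376). The remaining proteases were CTSA, the protective protein of lysosomal glycosidases, at 0.17 ± 0.11, the peptidases TPP1 and CTSC at 0.08 ± 0.09 and -0.12 ± 0.10, and the endopeptidase CTSL at -0.06 ± 0.11 on the log2 fold change scale.

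None of the 8 glycosidases, which remove sugars from glycoproteins and glycolipids, passed the test, and at an unadjusted p under 0.05 there were 0. FUCA1, which cleaves fucose, had 6.58 and 7.43 FPKM in TCN1_OE, against 5.93 and 5.53 FPKM in NC, a log2 fold change of 0.28 ± 0.17. GLA, the alpha-galactosidase deficient in Fabry disease, had 6.51 and 6.25 FPKM in TCN1_OE, against 6.93 and 7.49 FPKM in NC, a log2 fold change of -0.18 ± 0.11. The groups of each did not overlap, FUCA1 being the higher and GLA the lower in TCN1_OE, with edgeR adjusted p of 0.544 and 0.567. MAN2B1, a mannosidase, had 9.52 and 10.3 FPKM in TCN1_OE and 8.89 and 9.08 FPKM in NC, with 21.2% of its exonic bases under other genes. HEXA, the alpha subunit of hexosaminidase A, had 0.922 and 0.806 FPKM in TCN1_OE and 0.718 and 0.787 FPKM in NC. GLB1, GUSB and NAGLU, which cleave galactose, glucuronic acid and N-acetylglucosamine, stood at 0.02 ± 0.12, 0.02 ± 0.12 and -0.03 ± 0.18 on the log2 fold change scale. GUSB has partial pseudogene copies whose reads the counting could split.

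GAA, the acid glucosidase that degrades lysosomal glycogen and is deficient in Pompe disease, separated by replicate and not by line. It was named after its values were seen. It had 6 and 115 counts in TCN1_OE replicates 1 and 2, against 12 and 45 counts in NC replicates 1 and 2, or 0.0647 and 1.39 FPKM in TCN1_OE and 0.108 and 0.695 FPKM in NC. Both replicate 2 libraries were high and both replicate 1 libraries low. On the log2 CPM scale replicate 2 was above replicate 1 by 4.04 in TCN1_OE and by 2.48 in NC. Among 15113 genes tested, 76, or 0.503%, differed by over 2-fold between the replicates in the same direction in both groups, and GAA was the 1 lysosomal gene of 42 that did. The log2 fold change between lines was 0.97 ± 1.97, and it turned to -2.52 without TCN1_OE replicate 2, where GAA was called lower with an edgeR adjusted p of 0.0483, against adjusted p of 0.299 to 0.998 in its other alternatives. No other annotated gene covers its exons.

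**Figure D3:**
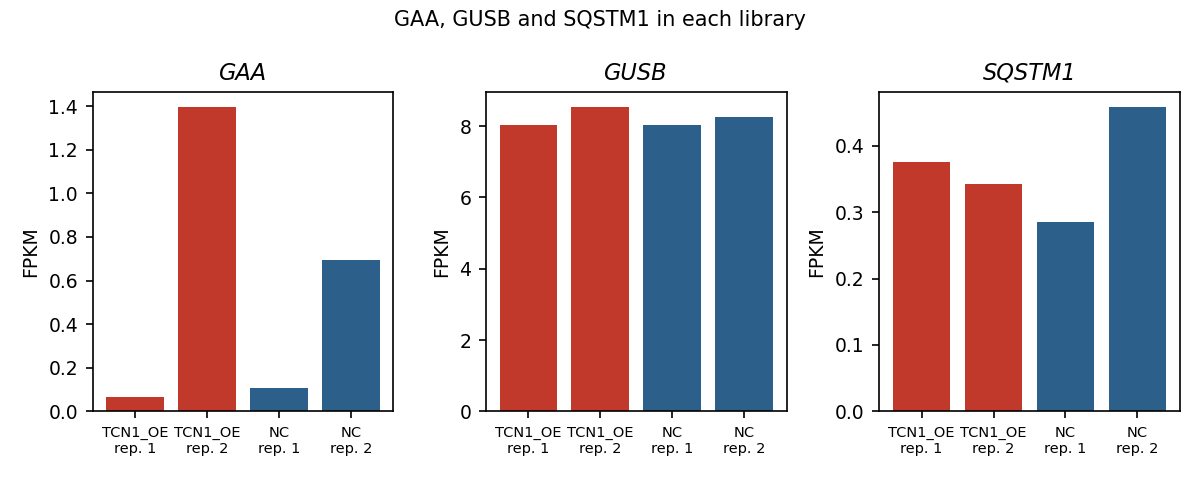
Level of GAA, of the glycosidase GUSB and of the autophagy receptor SQSTM1 in FPKM (vertical axes from 0), 1 bar for each of the 4 libraries, TCN1_OE at left and NC at right in each panel. GAA is at 1.39 and 0.695 FPKM in the replicate 2 libraries and at 0.0647 and 0.108 FPKM in the replicate 1 libraries, while GUSB stays between 8.02 and 8.53 FPKM.

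The sulfatases remove sulfate from glycosaminoglycans and sulfatide. Of the 5 tested, 0 passed, 4 had a positive value, and the median log2 fold change was 0.12. ARSA, which acts on sulfatide, had 5.87 and 5.84 FPKM in TCN1_OE and 4.23 and 5.33 FPKM in NC, a log2 fold change of 0.30 ± 0.15. ARSB, which acts on dermatan sulfate, had 0.650 and 0.762 FPKM in TCN1_OE and 0.878 and 0.960 FPKM in NC, a log2 fold change of -0.38 ± 0.21. ARSA lay higher and ARSB lower without overlap, but with edgeR adjusted p of 0.450 and 0.487. GALNS, deficient in Morquio syndrome, had 5.26 and 5.78 FPKM in TCN1_OE and 5.09 and 5.04 FPKM in NC. SGSH, which acts on heparan sulfate, had 2.41 and 2.46 FPKM in TCN1_OE and 1.86 and 2.51 FPKM in NC, and IDS, which removes sulfate from heparan and dermatan sulfate, stood at 0.12 ± 0.21 on the log2 fold change scale. IDS has a pseudogene copy close by, so its reads may be split.

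Of the 4 enzymes of lipid breakdown, 2 had a positive and 2 a negative value, and 0 passed. SMPD1, the acid sphingomyelinase that makes ceramide for the skin barrier, had 5.72 and 6.72 FPKM in TCN1_OE and 4.88 FPKM in both NC libraries, a log2 fold change of 0.35 ± 0.17 (edgeR adjusted p 0.428). ASAH1, the acid ceramidase that breaks ceramide down, had 5.79 and 5.83 FPKM in TCN1_OE and 5.28 and 5.60 FPKM in NC, a log2 fold change of 0.09 ± 0.10. Both lay higher in TCN1_OE without overlap and without passing. LIPA, which hydrolyses cholesteryl esters, had 37.2 and 34.8 FPKM in TCN1_OE and 39.9 and 37.7 FPKM in NC, a log2 fold change of -0.11 ± 0.09. PPT1, which removes palmitate from proteins, had 47.5 and 45.3 FPKM in TCN1_OE and 50.8 and 47.1 FPKM in NC, and its groups overlapped.

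PSAP was the most abundant gene of the set. It encodes the precursor of the saposins, which help enzymes to reach their lipids, and had 289 and 313 FPKM in TCN1_OE and 262 and 279 FPKM in NC. For PSAP the log2 fold change was 0.15 ± 0.09 (edgeR adjusted p 0.511). NPC2, the soluble cholesterol carrier that hands cholesterol to NPC1, had 29.6 and 26.3 FPKM in TCN1_OE and 24.4 and 23.1 FPKM in NC, a log2 fold change of 0.23 ± 0.11. In both cofactors the groups did not overlap.

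The proton pump stood near 0. Its 5 genes had a median log2 fold change of -0.0094, with 0 passing, and the median took either sign across the alternatives, from -0.03 to 0.05. ATP6AP1, an accessory subunit needed for assembly, was the one whose groups did not overlap, with 22.9 and 24.2 FPKM in TCN1_OE and 19.1 and 21.7 FPKM in NC, a log2 fold change of 0.20 ± 0.10. ATP6V1A, part of the catalytic head, had 28.2 and 24.8 FPKM in TCN1_OE and 27.6 and 26.3 FPKM in NC. ATP6V1B2, its partner in the head, had 11.6 and 11.9 FPKM in TCN1_OE and 11.5 and 12.2 FPKM in NC. ATP6V1H, a regulatory subunit of the head, had 26.5 and 23.9 FPKM in TCN1_OE and 25.1 and 24.6 FPKM in NC. ATP6V1A, ATP6V1B2, ATP6V1H and ATP6V0D1, the last of the membrane sector, had log2 fold changes between -0.03 and 0.02, with standard errors of 0.09 to 0.10.

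Of the MiT/TFE factors themselves, TFEB and MITF were tested. TFEB had 4.49 and 5.36 FPKM in TCN1_OE and 3.66 and 4.62 FPKM in NC, a log2 fold change of 0.26 ± 0.16 (edgeR adjusted p 0.543). MITF, the family member best known from melanocytes, had 1.58 and 1.44 FPKM in TCN1_OE and 1.57 and 1.24 FPKM in NC, a log2 fold change of 0.09 ± 0.19. The groups of both overlapped, and neither passed the test. These are transcript levels, and the family is known to be controlled largely by phosphorylation and by entry into the nucleus, which were not measured. SQSTM1, the receptor p62 that takes ubiquitinated cargo into autophagosomes, had 47 and 38 counts in TCN1_OE and 43 and 40 counts in NC, at most 0.458 FPKM. Of its exonic bases 22.0% lie under other annotated genes.

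The promoter windows of the set were searched for the core of the CLEAR element, TCACGTGA, which reads the same on both strands, and for the M-box. Windows from 250 bases before to 50 after each RefSeq start were found for 33 of the 44 genes. The CLEAR core was in the window of 7 of these 33, or 21.2%, against 0.980% of all 35116 windows and 1.66% of the windows of genes tested here. The M-box was in 4 of the 33, or 12.1%, against 0.9995% of all windows and 0.904% of those of genes tested. The shares of the set count genes with the motif in any of their windows, while the other shares count windows. The units therefore differ, in a way that can raise the shares of the set. Since the CLEAR element is known from lysosomal genes, its share here is no result of these data. The sites below, each with 11 bases on either side, are shown because they place the motifs beside the values of their genes. They read along the gene's strand with the motif in capitals, and where a gene has 2 sites the one farther from the start is given.
GPNMB M-box: gcttaataccaTCACATGAtcctccccgag
CD63 M-box: ctgttaccgcgTCACATGAgggaggccggc
TPP1 M-box: gaatatagagcTCATGTGAtccgtcacatg
PPT1 M-box: cgcgcccgcggTCATGTGAcacagcgaaga
MCOLN1 CLEAR core: accagaggcggTCACGTGAggggctctggg
CTSA CLEAR core: ggcgccggagtTCACGTGActcgtacacat
GALNS CLEAR core: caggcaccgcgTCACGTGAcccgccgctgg
LAMP1 CLEAR core: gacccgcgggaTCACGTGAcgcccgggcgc
ATP6V0D1 CLEAR core: cccccttatggTCACGTGAggcgcttgcgc
GAA CLEAR core: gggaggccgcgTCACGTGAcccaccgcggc
CLN3 CLEAR core: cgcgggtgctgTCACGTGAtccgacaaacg

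In GRCh38.p14 the M-box sites shown lie at chr7:23246701-23246730 for GPNMB on the plus strand, and on the minus strand at chr12:55729094-55729123 for CD63, chr11:6619425-6619454 for TPP1 and chr1:40097238-40097267 for PPT1. The CLEAR sites lie on the plus strand at chr19:7522571-7522600 for MCOLN1, chr20:45891298-45891327 for CTSA, chr13:113297199-113297228 for LAMP1 and chr17:80101493-80101522 for GAA. On the minus strand they lie at chr16:88857104-88857133 for GALNS, chr16:67481199-67481228 for ATP6V0D1 and chr16:28492058-28492087 for CLN3. TPP1 has a second M-box, and LAMP1, MCOLN1 and GAA each have a second CLEAR core. The 4 genes with an M-box included GPNMB at 0.76 and CD63 at 0.21, and also TPP1 at 0.08 and PPT1 at -0.08 on the log2 fold change scale. The 6 tested genes with a CLEAR core had a median log2 fold change of 0.10, with LAMP1 at -0.0017 and ATP6V0D1 at -0.0094, and the 21 tested genes with neither motif had a median of 0.09. A motif match describes the letters of the window, and binding was not measured here.

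Further lysosomal genes, listed by function but with earlier results of these data known, gave 1 call, on the higher side. Of all 15113 genes tested, 0.285% were called higher. Of 25 hydrolases and cofactors outside the set, 21 stood above 0 and the median log2 fold change was 0.21, with 0 called and 7 higher at an unadjusted p under 0.05, where 6.0% of all genes were higher at that limit. SCPEP1, a serine carboxypeptidase, had 27.3 and 26.1 FPKM in TCN1_OE, against 21.0 and 20.0 FPKM in NC, a log2 fold change of 0.38 ± 0.10 (edgeR adjusted p 0.13). CTSS, a cathepsin of antigen processing, had 0.919 and 0.876 FPKM in TCN1_OE, against 0.480 and 0.538 FPKM in NC, a log2 fold change of 0.82 ± 0.23. SUMF1, which activates the sulfatases, had 2.69 and 2.84 FPKM in TCN1_OE, against 2.08 and 1.85 FPKM in NC, a log2 fold change of 0.49 ± 0.16. The groups of all 3 were apart, with edgeR adjusted p from 0.13 to 0.229.

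Of 22 other lysosomal membrane proteins tested, 14 stood above 0, the median was 0.09, and 1 passed. PIP4P1, a lysosomal phosphoinositide phosphatase also called TMEM55B, had 143 and 62 counts in TCN1_OE, against 2 and 7 counts in NC, or 2.33 and 1.14 FPKM in TCN1_OE and 0.0271 and 0.163 FPKM in NC. It rose by 4.41 ± 0.60 on the log2 scale, with an edgeR adjusted p of 0.0208. The fitted size ran from 3.39 without NC replicate 1 to 5.91 without NC replicate 2, and with limma on log2(FPKM + 0.5) it was 1.86 with an adjusted p of 0.194. CTNS, the cystine exporter, had 12.6 FPKM in both TCN1_OE libraries, against 9.15 and 8.68 FPKM in NC, a log2 fold change of 0.49 ± 0.11 (edgeR adjusted p 0.0878). Among the alternatives without a replicate block it was called with DESeq2 (adjusted p 0.0359) and with no count filter (0.0107), and its adjusted p ran up to 0.202. LAPTM4A, a small transmembrane protein of late endosomes, had 206 and 192 FPKM in TCN1_OE and 178 and 162 FPKM in NC.

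**Figure D4:**
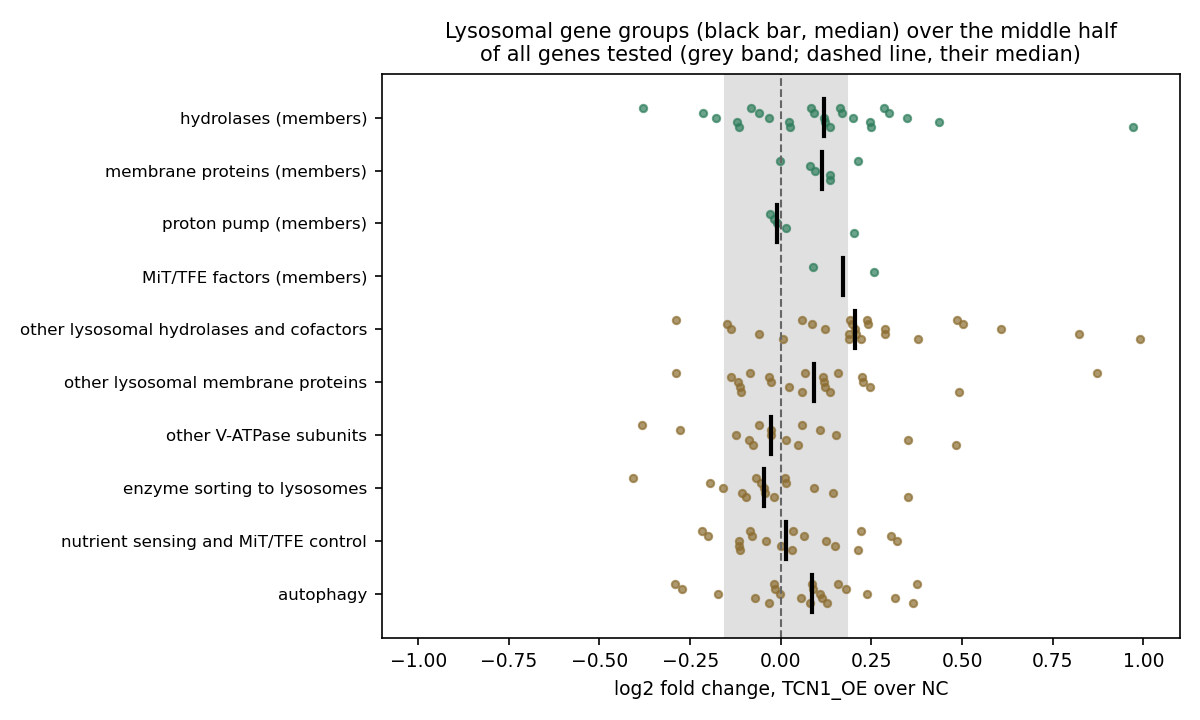
Log2 fold change, TCN1_OE over NC (horizontal axis), of each tested gene in the roles of the set (green) and in 6 further lists (brown), with a black bar at each median, over a grey band from the lower to the upper quartile of all genes tested, -0.15 to 0.18, and a dashed line at their median of 0.0016. The medians run from -0.05 for enzyme sorting to 0.21 for the other hydrolases and cofactors. PIP4P1, at 4.41, is beyond the right edge.

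The 15 other subunits of the V-type ATPase resembled the 5 of the set in having no call and a median near 0, -0.03, with 7 positive values and 8 negative. ATP6V0A2, a membrane subunit, had 1.53 and 1.41 FPKM in TCN1_OE, against 1.81 and 2.02 FPKM in NC, a log2 fold change of -0.38 ± 0.13. ATP6V0D2 and ATP6V0B stood at 0.48 ± 0.31 and -0.12 ± 0.12. The 15 tested genes that sort enzymes to lysosomes had 5 positive and 10 negative values with a median of -0.05 and 0 calls. CLN6, which helps enzymes out of the endoplasmic reticulum, had 3.42 and 4.03 FPKM in TCN1_OE, against 4.63 and 5.25 FPKM in NC, a log2 fold change of -0.41 ± 0.14. The sorting receptor SORT1 stood at 0.35 ± 0.17 and the adaptor subunit AP1B1 at -0.19 ± 0.11.

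Nutrient sensing at the lysosome, which holds TFEB in the cytoplasm when amino acids are plentiful, was represented by 18 tested genes with a median log2 fold change of 0.02 and 0 calls. FLCN, which acts on the RAG GTPases in that control, had 3.79 and 3.68 FPKM in TCN1_OE, against 2.96 and 3.08 FPKM in NC, a log2 fold change of 0.30 ± 0.12. The kinase MTOR had 10.6 and 10.0 FPKM in TCN1_OE, against 11.6 and 12.3 FPKM in NC, a log2 fold change of -0.22 ± 0.09, and RRAGB stood at 0.32 ± 0.16. Of 21 tested autophagy genes 13 stood above 0, the median was 0.09, and there were 0 calls. The cargo receptor OPTN had 33.6 and 32.5 FPKM in TCN1_OE, against 27.4 and 25.5 FPKM in NC, a log2 fold change of 0.31 ± 0.09 (edgeR adjusted p 0.171). ULK1, the kinase that starts autophagy, stood at 0.38 ± 0.14, and among the alternatives without a replicate block was called without TCN1_OE replicate 1 (edgeR adjusted p 0.0168, up to 0.792 over its alternatives), and ATG9A, a membrane carrier for autophagosomes, stood at -0.27 ± 0.12.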

How the data were processed

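PolyA RNA was sequenced from 2 TCN1_OE and 2 NC libraries of HaCaT cells, prepared with an NEBNext Ultra RNA kit, per the labels' protocols. The kit of that name is the non-directional one, which does not mark strand. HISAT2, HTSeq 0.13.5 and GRCh38 are the tools and build named, per the submitters' processing notes. How HTSeq treated strand and reads with several matches, and which annotation it used, is not given in the sources used here. Each of the 4 deposited files holds a raw count and an FPKM value per gene for 1 library. The deposited FPKM follows from the count, since the implied gene length was a whole number of base pairs, within 1e-04, in 100% of values above 0. At 1500 bp, 3 counts correspond to 0.100 to 0.173 FPKM, a floor that covers counting error only.

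Counts were tested with edgeR 4.0.16 (quasi-likelihood, TMM, robust, group as the only term, all 4 libraries) in R 4.3.3, on 15113 genes kept by filterByExpr with a minimum count of 10, with Benjamini-Hochberg adjustment over all of them and a threshold of 0.05. The step was tested on simulated counts. For a single value in 2 libraries against 2, the smallest p of an exact permutation test (two-sided) is 0.333. The standard error is the log2 fold change divided by the square root of F. The genes and lists were chosen with earlier results of these data known. By the rule for named genes, values in every library are given for GPNMB and for the up to 4 genes of each role with the smallest unadjusted p, other genes of the set are given by their fold change or range, and up to 3 genes of each further list with the smallest p are named. LAMP1, GAA and a few others were given in full after their values were seen. Exonic overlap and gene positions came from GENCODE 29 (GRCh38), promoter windows from RefSeq. Of the 44 genes, LAMP2, CTSB, HEXA, NAGLU, SGSH, ARSA, ASAH1, PSAP, ATP6V1A, ATP6V1B2 and ATP6V1H had no window. Alternatives were DESeq2 1.42.0, limma 3.58.1 on log2(FPKM + 0.5) and log2(FPKM + 0.1), other scalings and filters, the replicate block, and each library left out.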

Additional observations from a re-analysis of the deposited data

How the results depend on the processing

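The limits are those of 2 libraries a group: GPNMB was called in 10 of 12 alternatives, with a log2 fold change of 0.68 to 0.83, and not with limma on log2(FPKM + 0.5) or log2(FPKM + 0.1), where its adjusted p was 0.151 and 0.133. Over all genes, 43 were called higher and 32 lower, against 110 and 113 with DESeq2, 78 and 53 with upper-quartile factors, 200 and 275 with no count filter, 14 lower under a minimum mean of 1 FPKM, and 1 and 0 with limma under both pseudocounts. Leaving out 1 library gave 102 to 195 higher and 103 to 124 lower. Of the lysosomal set, 2 were called higher with DESeq2, upper-quartile factors and no count filter, 0 with limma under both pseudocounts, and leaving out 1 library gave 1 to 2 higher and 0 to 1 lower. Of the further lists, 2 were called higher with DESeq2 and with no count filter, and 0 with limma. Under the 1 FPKM minimum 0 were called, but that filter left PIP4P1 out before the test.

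The samples share replicate numbers in their titles, but with 2 pairs and no label that says a number marks a shared culture, the numbers were not taken as pairs. The deviations of equally numbered libraries correlated at 0.150. With the replicate block edgeR called 1216 genes higher and 1655 lower of the 15113 tested. Of the 42 tested genes of the lysosomal set it called 12 higher and 2 lower, and of the further lists 18 and 7. With 4 libraries the block leaves few residual degrees of freedom, so its p-values are less firm than their size. CTSH (edgeR adjusted p 8.9e-14), CTNS (8.3e-07), ULK1 (2.3e-06) and TFEB (0.0497) were among the calls with the block.

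The median log2 fold change of membrane proteins was 0.14 with upper-quartile factors. Without 1 library the median ran from 0.0456 to 0.151 for hydrolases, from 0.0042 to 0.0479 for the proton pump and from 0.125 to 0.212 for the MiT/TFE factors. In 14 genes the sign turned under some alternative, none of them called in the fit on all libraries, and the cause was not tested. Under the other scalings, filters and tests these were LAMP1 (0.0015 with DESeq2, 0.0014 with RLE size factors, 0.021 with upper-quartile factors, 0.011 under the 1 FPKM minimum, 0.0020 by limma under both pseudocounts), ATP6V0D1 (0.013 with upper-quartile factors, 0.0036 with a mean of at least 1 FPKM), ATP6V1B2 (0.0025) and SQSTM1 (0.0020) with upper-quartile factors, and ATP6V1H (-0.0020) with no count filter. Leaving out 1 library gave -0.105 to 0.0984 for ATP6V0D1, -0.113 to 0.0479 for ATP6V1A, -0.0655 to 0.0346 for ATP6V1B2, -0.0499 to 0.0767 for ATP6V1H, -2.52 to 2.74 for GAA, -0.0983 to 0.135 for GLB1, -0.0340 to 0.0772 for GUSB, -0.180 to 0.377 for IDS, -0.0469 to 0.0471 for LAMP1, -0.0070 to 0.169 for MCOLN1, -0.0506 to 0.273 for MITF, -0.258 to 0.221 for NAGLU, -0.0514 to 0.399 for SGSH and -0.356 to 0.337 for SQSTM1.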
